A study of Bos taurus with 21 samples.

Results

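The comparison was between the small RNA of serum extracellular vesicles from 7 cows with subclinical mastitis and that of 7 healthy cows, which are 14 of the 21 cows of the study. Groups were taken from the condition given for each cow, and no measured value was used to choose them. The other cows, which had clinical mastitis, entered a single alternative fit. Besides the condition the labels give serum as the tissue and Bos taurus as the species. No agent or treatment is named. Breed, age, stage of lactation, the way subclinical mastitis was diagnosed and the way vesicles were isolated are not given in the sources used here. Each column stands for 1 cow, so p-values measure the spread between these cows.

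Subclinical mastitis is an inflammation of the udder without visible signs in the milk or the gland, usually recognised by raised cell counts in milk. Extracellular vesicles are membrane-bound particles that cells shed into body fluids, and those in serum come from blood cells, vessel walls, liver and other organs. They carry miRNAs, short RNAs that pair with messenger RNAs and repress them. Since a serum sample pools vesicles of all sources, fewer vesicles of a source and less of a miRNA per vesicle cannot be told apart.

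The table held 298 rows with a known bovine miRNA name and 549 rows with only a number behind a chromosome or scaffold name. Known and numbered rows were each scaled by a total of their own. Signal below means reads per 1000000 of that scaling total within a block, either the known or the numbered miRNAs of a library. Those totals were 1332 to 5550 known and 11330 to 30213 numbered reads in healthy cows. In subclinical cows they were 3115 to 27453 known and 19619 to 28297 numbered reads. Whole reads recovered from the signal summed to more than these totals in every library. In healthy 1 they were 3058 known against 2922, and 26878 numbered against 23785. The reason was not tested. Summed reads, shares of known reads and counts at equal reads below use recovered reads. Summed over cows, healthy libraries held 21103 known reads and subclinical ones 116045. Summed reads of a known miRNA therefore do not compare the groups by themselves. At the smallest known total, in healthy 6, 1 read was worth 750.8 units of signal. Healthy 7 stood apart from its group, with 32.9% of its 2 totals in known rows against 4.77 to 14.9% in the other healthy cows, and with the lowest numbered total.

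Between the groups, 4 known miRNAs and 4 numbered ones stood out. miR-122, the miRNA that makes up most of the miRNA of hepatocytes, rose 10.5-fold in subclinical cows. miR-574 and miR-2478 fell, relative to the other known miRNAs, by 5.28-fold and 11.7-fold. miR-1246 was higher in subclinical cows by the count tests and did not pass limma. Of the numbered miRNAs 3_6921, 7_15338, 11_22742 and 1_1270 rose, by ratios of 20.2 to 55.1.

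By limma on log2(signal + 1000) for known and log2(signal + 100) for numbered miRNAs, 7 of 509 tested miRNAs passed a Benjamini-Hochberg adjusted p under 0.05, which is 1.38%. Of these, 5 were higher (0.982%) and 2 lower (0.393%) in subclinical cows. Among the 105 known miRNAs tested 3 passed (2.86%), 1 higher (0.952%) and 2 lower (1.9%). Among the 404 numbered ones 4 passed (0.99%), all of them higher. At an unadjusted p under 0.05 there were 58, of which 16 were known and 42 numbered. edgeR's quasi-likelihood test on whole reads recovered from the signal called 7 (1.38%), 6 of them shared with limma. DESeq2 called 12 (2.36%), among them all 7 of limma.

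**Figure D1:**
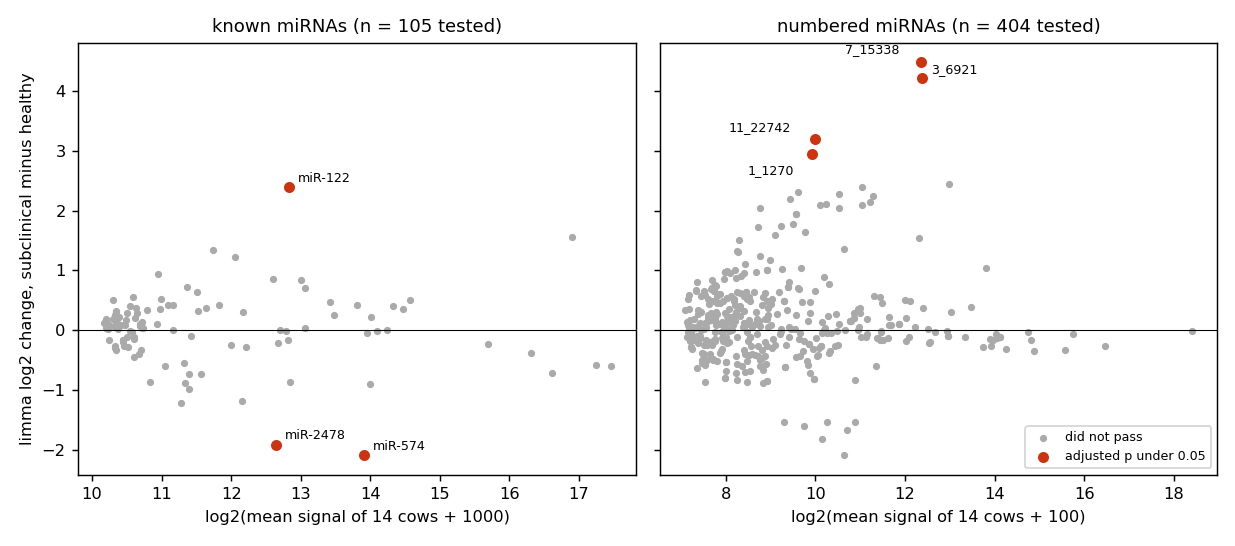
Limma log2 change (subclinical minus healthy) of the 105 known and 404 numbered miRNAs tested, against log2 of their mean signal over 14 cows plus 1000 or 100; each point is a miRNA, and red points passed an adjusted p under 0.05. The 2 known miRNAs that passed downwards lie at -2.09 and -1.91, miR-122 lies at 2.39, and the 4 numbered ones that passed lie between 2.94 and 4.48.

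In healthy cows the signal of miR-122 ran from 0 over a median of 0 to 4324, and in subclinical cows from 642 over a median of 8116 to 27833. Of the healthy cows, 4 had no read of it, and the others were healthy 7 with 24 reads, healthy 5 with 13 and healthy 4 with 1. In subclinical cows every library held it, and 5 of 7 lay above all healthy cows, while subclinical 2 and subclinical 7 lay within the healthy range. The mean signal was 1090 ± 1761 in the healthy group and 11473 ± 9982 in the subclinical group (SD, n = 7 each, here and below).

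The difference in miR-122 was 2.39 on the log2(signal + 1000) scale (SE 0.56, 95% interval 1.25 to 3.53; limma adjusted p = 0.0161). The signal of 6 of 7 subclinical cows was above the healthy mean. edgeR gave a log2 change of 3.51 (adjusted p = 0.00317), a call lost without healthy 1, subclinical 1 or subclinical 5 (highest adjusted p = 0.0712). With 1 library left out at a time, miR-122 passed limma in 9 of 14 fits, failing without healthy 2, healthy 3, subclinical 1, subclinical 3 or subclinical 5 (highest adjusted p = 0.109). With a pseudocount of 1 limma did not call it (adjusted p = 0.0693). The ratio of means was 8.02 without subclinical 3 and 20.8 without healthy 7.

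Other liver-linked miRNAs did not pass as deposited. miR-192, which is abundant in liver, gut and kidney epithelium, had a signal of 1048 ± 1879 in healthy and 3777 ± 2533 in subclinical cows (limma log2 difference 1.33, adjusted p = 0.211). The healthy value rested on healthy 7 at 5225, and without that cow the difference was 1.66 (limma adjusted p = 0.0351). Of the 14 limma fits without 1 library, miR-192 passed only in that 1. The highest adjusted p by limma was 0.465, without subclinical 5. miR-215, which shares the seed of miR-192, was at 1332 ± 2278 and 1937 ± 1039 (limma 0.73, adjusted p = 0.610). miR-194, transcribed together with miR-192 and miR-215 in mammals, was at 554 ± 756 and 498 ± 697 (limma -0.02, 95% interval -0.65 to 0.60). miR-885 had 2 reads in all healthy and 23 in all subclinical libraries, and as signal it was at 94.5 ± 183.3 and 204.2 ± 265.2 (limma 0.13, adjusted p = 0.768). The median log2 difference was 1.26 for the 2 tested members of the hepatocyte list and 0.73 for the 3 of the liver, gut and kidney list. Over all 105 known miRNAs tested it was 0.05, with 61 above and 44 below 0. Hepatocyte miRNAs made up 0 to 0.508% of known reads in healthy and 0.0941 to 2.85% in subclinical cows. Most of this share was miR-122 itself, with 38 healthy and 1196 subclinical reads, and the hepatocyte median lies midway between miR-122 (2.39) and miR-885 (0.13).

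**Figure D2:**
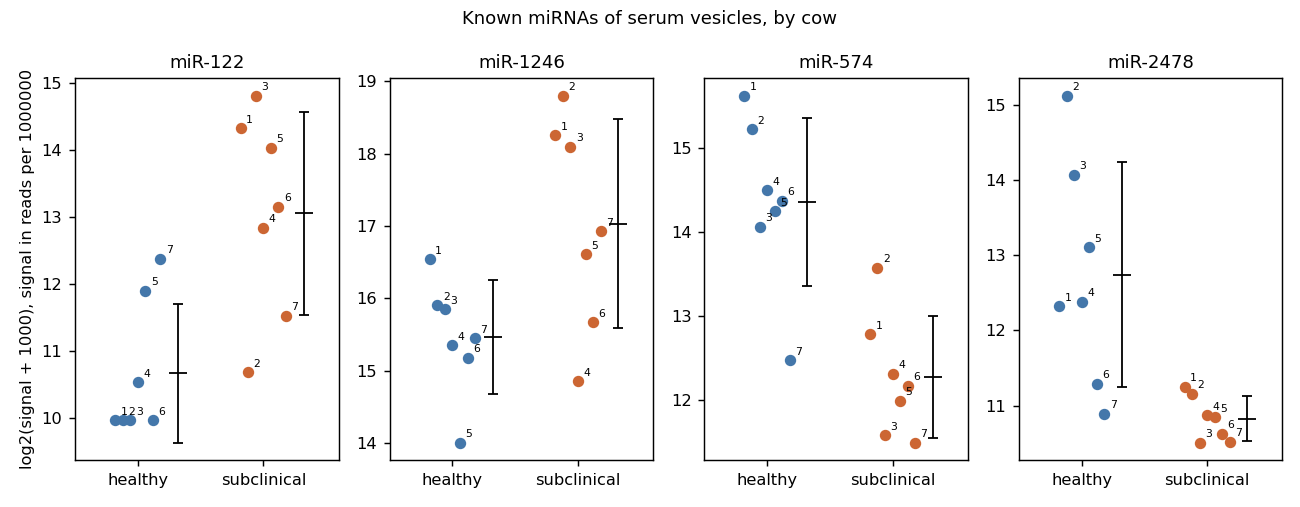
log2(signal + 1000), with signal in reads per 1000000 of the known scaling total, of miR-122, miR-1246, miR-574 and miR-2478; each point is a cow with its replicate number, and black bars are the mean ± SD of the plotted values (n = 7 per group). In each panel 5 of 7 subclinical cows lie outside the healthy range, above it for miR-122 and miR-1246 and below it for miR-574 and miR-2478.

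miR-1246, which in human cells is largely cut from a spliceosomal small nuclear RNA, was read in all 14 libraries. Its signal in healthy cows ran from 15438 over a median of 43784 to 94114, and in subclinical cows from 28558 over 123395 to 455217. Subclinical 1, subclinical 2 and subclinical 3 were highest, at 312338, 455217 and 279392, while subclinical 4 and subclinical 6 stayed within the healthy range. The mean signal was 49802 ± 24589 in healthy and 192744 ± 158785 in subclinical cows, a ratio of 3.87, with 6 of 7 subclinical cows above the healthy mean. Both count tests called miR-1246 higher, edgeR with a log2 change of 2.27 (adjusted p = 0.00317) and DESeq2 with 2.45 (adjusted p = 0.00658). Limma did not call it (log2 difference 1.56, SE 0.46, 95% interval 0.62 to 2.51, adjusted p = 0.108). It passed limma without subclinical 4 or subclinical 6. It also passed limma with replicate numbers as a block (adjusted p = 0.00971). Those numbers name different cows, so that pass adds no support. The edgeR call was lost without healthy 5, subclinical 1 or subclinical 3 (highest adjusted p = 0.0623).

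Of the known miRNAs that fell, miR-574 kept its call in all 14 limma fits that left out 1 library (highest adjusted p = 0.0238). In healthy cows its signal ran from 4685 over a median of 20270 to 49624, and in subclinical cows from 1879 over 3607 to 11236. Healthy 7 was the healthy cow at 4685, and the lowest of the other healthy cows was at 16165, above every subclinical cow. Means were 24121 ± 14836 and 4565 ± 3256, a log2 difference of -2.09 (SE 0.42, 95% interval -2.94 to -1.23; limma adjusted p = 0.00657), with 7 of 7 subclinical cows below the healthy mean. edgeR gave -2.17 (adjusted p = 0.00508) and kept the call in 8 of 14 fits without 1 library. The libraries it depended on were healthy 1 and subclinical 1, 4, 5, 6 and 7, with a highest adjusted p of 0.170 without healthy 1 by edgeR.

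miR-2478, a miRNA named in cattle, was read in every library but rested on few reads, 164 in all healthy and 83 in all subclinical cows. Its healthy signal ran from 901 over a median of 4331 to 34567, and its subclinical signal from 456 over 835 to 1438. Only subclinical 1 and subclinical 2 reached the lowest healthy cow, healthy 7. Means were 9914 ± 12028 and 848 ± 389, with 7 of 7 subclinical cows below the healthy mean (limma log2 difference -1.91, SE 0.50, 95% interval -2.93 to -0.89, adjusted p = 0.0462; edgeR -3.21, adjusted p = 0.00317). Limma kept this call in 3 of 14 fits without 1 library, those without healthy 6, healthy 7 or subclinical 4, and edgeR kept it in 10. The highest adjusted p by limma was 0.182, without healthy 2, where the ratio of subclinical to healthy means was 0.146 in place of 0.0856.

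The direction of miR-574 and miR-2478 is relative to the known total. When both blocks were divided by 1 common total, in 1 limma fit with a pseudocount of 100 for all rows, the log2 difference was -0.53 for miR-574 (limma adjusted p = 0.342) and -0.83 for miR-2478 (limma adjusted p = 0.282). edgeR, on the summed recovered reads of both blocks, gave -0.31 for miR-574 (adjusted p = 0.734) and -1.05 for miR-2478 (adjusted p = 0.401). In reads, miR-574 numbered 435 in healthy and 386 in subclinical libraries. With median-ratio scaling of the known rows, miR-574 was at -1.79 (limma adjusted p = 0.0653) and miR-2478 at -1.68 (limma adjusted p = 0.167). On the common total miR-122 was at 3.74 (limma adjusted p = 0.0152) and miR-1246 at 3.36 (limma adjusted p = 0.000823). The part of the known total in these differences was not tested.

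Further known miRNAs stood near the head of the order by p without passing as deposited. miR-2431-3p had 1 read in the healthy libraries and 38 in the subclinical ones, where it was in all 7 cows (limma 0.50, adjusted p = 0.211). Its signal was 25.7 ± 68.1 and 488 ± 408, and the subclinical cows alone brought it to the number of cows required for testing. miR-29a, whose family represses collagen messenger RNAs, was at 363 ± 565 and 1580 ± 779 (limma 0.94, adjusted p = 0.274). miR-11980 was at 2665 ± 2765 and 318 ± 441 (limma -1.22, adjusted p = 0.211) and miR-1260b at 5368 ± 3293 and 1764 ± 1392 (limma -1.18, adjusted p = 0.211). miR-184 was called lower by DESeq2 alone (adjusted p = 0.0302), from 21 reads in 3 healthy cows and 7 reads in 4 subclinical cows. miR-12034 had 1073 ± 1562 and 5469 ± 6352 (limma 1.22, adjusted p = 0.409).

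The numbered miRNAs that rose fell into 2 pairs with similar totals of reads, and whether the rows of a pair share reads was not tested. Subclinical libraries held 1601 reads of 3_6921 and 1574 of 7_15338, and healthy ones 54 and 42. These 2 rows were also close in single cows, with 435 and 426 reads in subclinical 3, 582 and 580 in subclinical 7 and 27 each in healthy 7. In healthy 1 they were apart (18 and 9). The 4 numbered calls are thus calls of rows and need not be separate signals. For 11_22742 and 1_1270 the totals were 280 and 266 subclinical and 6 and 7 healthy reads, with larger differences between the rows in single cows. The row names put them on chromosomes 3, 7, 11 and 1, and no sequence or gene name comes with them. The signal of 3_6921 ran from 0 over a median of 81.0 to 2383 in healthy cows and from 742 over 9628 to 22172 in subclinical cows. For 7_15338 the ranges were 0 over 81.0 to 2383 and 707 over 9491 to 21886. In both rows the highest healthy cow was healthy 7, and subclinical 2, subclinical 4 and subclinical 6 lay within the healthy range. The other 4 subclinical cows were above all healthy cows.

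Means of 3_6921 were 495 ± 872 and 10004 ± 9300, which is 20.2-fold, or 55.4-fold without healthy 7 (limma log2 difference 4.21, SE 0.80, adjusted p = 0.00657; edgeR adjusted p = 0.0433). Means of 7_15338 were 425 ± 874 and 9829 ± 9186, which is 23.1-fold, or 99.6-fold without healthy 7 (limma 4.48, SE 0.81, adjusted p = 0.00657). For 7_15338 edgeR missed the threshold (adjusted p = 0.0548). In both, 7 of 7 subclinical cows were above the healthy mean.

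The other pair, 11_22742 and 1_1270, separated the groups without overlap, which 2 of 404 numbered miRNAs did upwards (0.495%), none downwards, and 0 of 105 known ones did in either direction. The subclinical cows alone brought both rows to the number of cows required for testing. The lack of overlap is therefore a description and no further support for a difference. 11_22742 had 6 healthy reads, all from healthy 5, and its subclinical signal ran from 251 over a median of 453 to 6472. 1_1270 had 7 healthy reads in 3 cows, with a highest signal of 153, and ran from 264 over 530 to 6561 in subclinical cows. Subclinical 1 was the highest cow in both. The log2 differences were 3.20 (SE 0.61; limma adjusted p = 0.00657) for 11_22742 and 2.94 (SE 0.59; limma adjusted p = 0.00880) for 1_1270, and edgeR gave adjusted p = 0.0164 and 0.0133. Without subclinical 1 the ratio of means dropped from 55.1 to 31.2 for 11_22742 and from 37.1 to 19.4 for 1_1270.

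**Figure D3:**
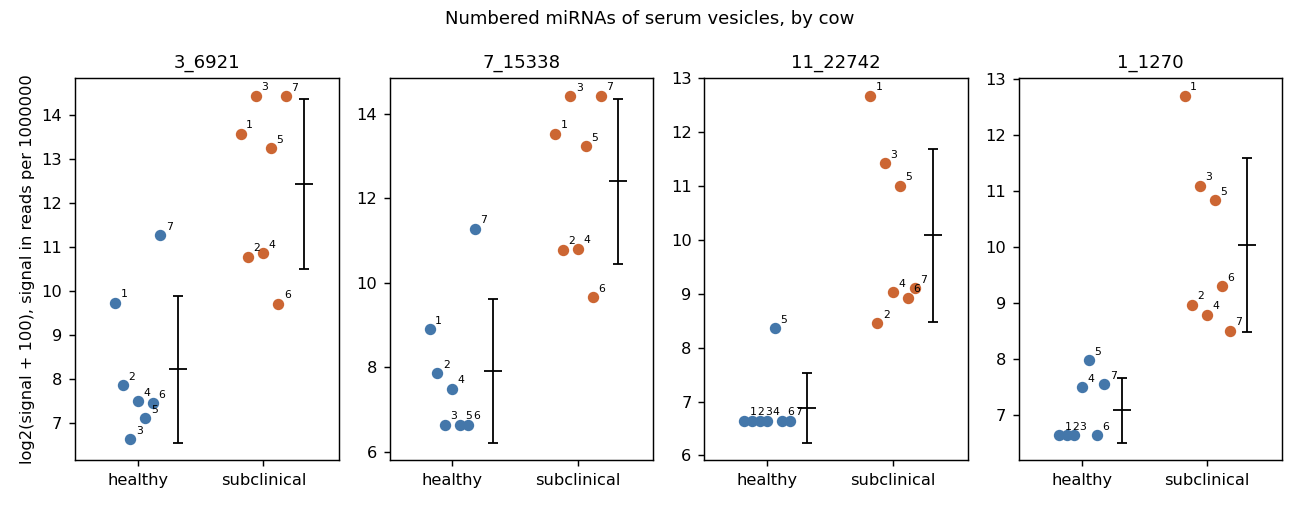
log2(signal + 100), with signal in reads per 1000000 of the numbered scaling total, of 3_6921, 7_15338, 11_22742 and 1_1270; each point is a cow with its replicate number, and black bars are the mean ± SD of the plotted values (n = 7 per group). Healthy 7 lies among the subclinical cows in the first 2 panels, and the groups do not overlap in the last 2.

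All 4 numbered miRNAs passed limma in each of the 14 fits without 1 library. The count test was less stable for them, with 4 of 14 such edgeR fits passed by 3_6921 and 7_15338, 7 by 11_22742 and 11 by 1_1270. Without the 2 libraries under 2000 known reads, healthy 3 and healthy 6, limma called no miRNA (34 at an unadjusted p under 0.05) and edgeR called 2, miR-574 and miR-2478. In that setting the adjusted p by limma was 0.127 for miR-122, 0.0501 for miR-574 and 0.0760 for miR-2478, and 0.0718 to 0.0760 for the 4 numbered miRNAs.

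The most abundant numbered miRNAs were close in both groups. 4_9843 had a signal of 349408 ± 34167 in healthy and 347169 ± 42886 in subclinical cows (limma log2 difference -0.01, 95% interval -0.23 to 0.20). X_46560 was at 56007 ± 5977 and 53992 ± 9474 (limma -0.06, 95% interval -0.32 to 0.20). NKLS02002111.1_47333 was at 97686 ± 20145 and 83000 ± 22794 (limma -0.26, 95% interval -0.65 to 0.12).

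The let-7 family, which in animals restrains growth genes and marks differentiated cells, made up the largest median share of known reads of any list in both groups. With miR-98, its share ran from 38.2 over a median of 41.8 to 46.4% in healthy cows and from 18.4 over 28.4 to 41.4% in subclinical cows. The 3 subclinical cows with the lowest let-7 share were those with the highest miR-1246. Both are parts of the same known total, so a high miR-1246 lowers the let-7 share by arithmetic. Of the 10 members tested, 9 had a log2 difference below 0 and none passed, with a median of -0.26 as deposited, -0.07 with the known scale taken without miR-1246, -0.03 with median-ratio scaling and 1.2 on the common total.

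Among its members, let-7a-5p had a signal of 163296 to 192308 in healthy and 80578 to 181295 in subclinical cows (limma -0.58, 95% interval -1.06 to -0.09, adjusted p = 0.324), and 5 of 7 subclinical cows lay below all healthy ones. let-7f was at 119692 ± 13431 and 79712 ± 35687 (limma -0.71, adjusted p = 0.297), and let-7b at 91440 ± 21401 and 69281 ± 12711 (limma -0.38, adjusted p = 0.576). let-7c had the smallest p of the family, at 20591 ± 8629 and 9951 ± 2236 (limma -0.91, adjusted p = 0.211, or -1.08 with adjusted p = 0.0322 without healthy 7). Of the 14 limma fits without 1 library, let-7c passed only in the 1 without healthy 7. The highest adjusted p by limma was 0.391, without healthy 1. On the common total the log2 difference of let-7c was 0.81 (limma adjusted p = 0.193).

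**Figure D4:**
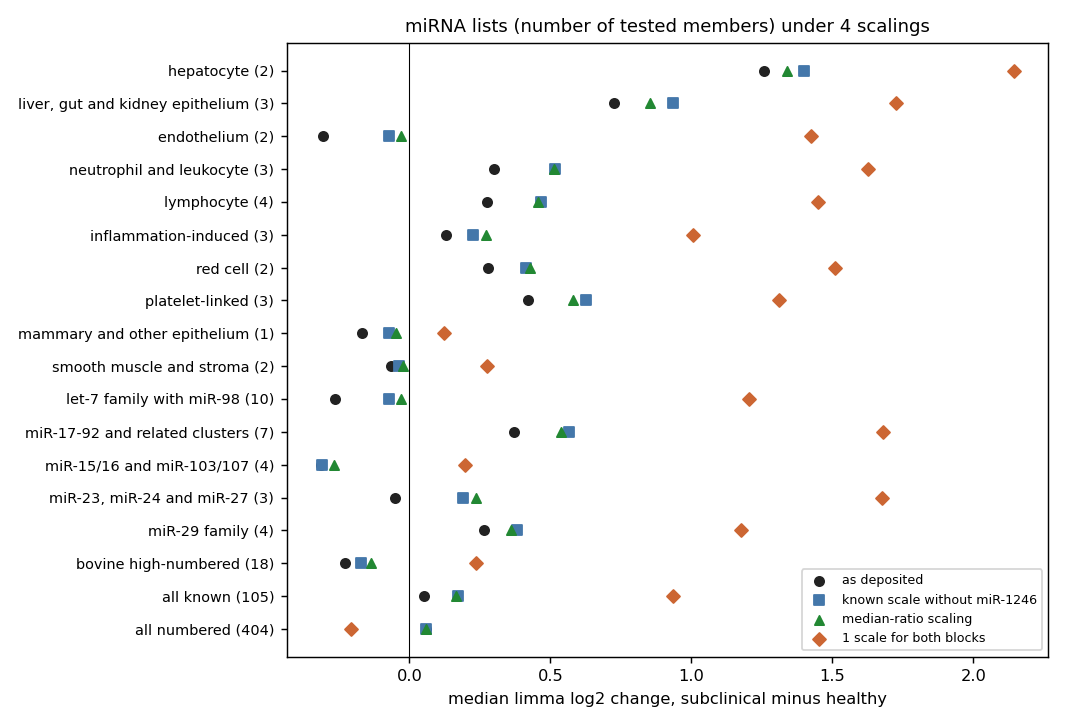
Median limma log2 change (subclinical minus healthy) over the tested members of each miRNA list, whose number is in brackets, under 4 scalings, of which 1 scale for both blocks also has a pseudocount of 100 in place of 1000; each symbol is a list median. The let-7 median lies at -0.26 as deposited and at 1.2 on 1 scale for both blocks, and the median of all known miRNAs moves from 0.05 to 0.94.

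Endothelial and blood cell miRNAs gave no call. miR-126-5p, from a gene of vessel walls, was the most abundant known miRNA over the 14 cows, at 195838 ± 53267 and 161906 ± 110326 (limma -0.60, 95% interval -1.36 to 0.17). Its partner strand miR-126-3p was at 6194 ± 3809 and 5967 ± 3029 (limma -0.01, 95% interval -0.80 to 0.77). miR-223, the leading miRNA of neutrophils, was at 19103 ± 10091 and 24282 ± 11007 (limma 0.35, 95% interval -0.38 to 1.09). Neither arm of miR-142, which is made in blood-forming cells, passed, with limma differences of 0.30 for miR-142-5p and -0.22 for miR-142-3p. On medians, the neutrophil and leukocyte list lay at 0.30 and the endothelial list at -0.31 (both limma, as deposited), and the endothelial median was 1.42 on the common total.

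Lymphocyte miRNAs had a median of 0.28 over 4 tested. miR-150, of mature lymphocytes, was at 14605 ± 7144 and 16357 ± 5895 (limma 0.22, 95% interval -0.49 to 0.94). miR-342 was at 3976 ± 4281 and 6464 ± 4086 (limma 0.85, adjusted p = 0.576), while miR-28 and miR-181a were at 0.33 and -0.11. Of the inflammation-induced miRNAs 3 of 5 were tested, with a median of 0.13. miR-21-5p, which rises in many inflamed tissues, was at 16691 ± 6650 and 16450 ± 6735 (limma -0.02, 95% interval -0.71 to 0.67). miR-221 and miR-222 were at 0.21 and 0.13, and miR-146a and miR-146b had too few reads to be tested.

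Red cell and platelet miRNAs were also without a call, with list medians of 0.28 and 0.42. miR-486, abundant in red cells, was at 8061 ± 4068 and 11983 ± 7553 (limma 0.48, 95% interval -0.32 to 1.28), and miR-451 at 425 ± 734 and 414 ± 384 (limma 0.08). miR-191, miR-328 and miR-197, which are plentiful in platelets, had differences of 0.42, 0.43 and 0.12. miR-25, miR-92a, miR-19b and miR-17-5p belong to the miR-17-92 cluster and its relatives, which favour cell proliferation. All 7 tested members of that group had a difference above 0, with a median of 0.37 and no call. miR-25 was at 16324 ± 4647 and 22726 ± 9214 (limma 0.40, 95% interval -0.23 to 1.04).

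Several of these blood miRNAs passed on the common total, where the median of all known miRNAs was itself at 0.94. There miR-25 was at 2.16 (limma adjusted p = 0.0191), miR-150 at 1.96 (limma adjusted p = 0.0152) and miR-223 at 2.09 (limma adjusted p = 0.0456). miR-486 and miR-191 were at 2.15 and 2.11 (limma adjusted p = 0.0441 each). Of the other known miRNAs named above as not passing, miR-192 was at 2.51 (limma adjusted p = 0.0441), miR-29a at 2.01 (limma adjusted p = 0.0145) and miR-2431-3p at 1.13 (limma adjusted p = 0.0179). miR-29b was at 1.79 and miR-423-5p at 2.23 (limma adjusted p = 0.0495 each). In that setting 13 of the 105 known miRNAs tested passed. Abundant miRNAs with little difference as deposited also moved up, miR-10174-3p from 0.001 to 1.74 and miR-21-5p from -0.02 to 1.71 (limma), without passing. The part of the higher known totals of subclinical libraries in these values was not tested.

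Members of the mammary and epithelial list were near the limit of detection. The list was not compared with udder tissue, and a mammary source of the vesicles was not tested. The 9 members of the mammary and epithelial list together took 0 to 0.210% of known reads in healthy cows and 0.0230 to 0.155% in subclinical cows. miR-200c was the only one tested, with 10 healthy and 18 subclinical reads (limma -0.17, 95% interval -0.67 to 0.33). None of 4 striated muscle, 4 neuronal or 6 miR-30 rows was tested. For smooth muscle and stroma miR-143 and miR-145 were at 0.03 and -0.17, with a median of -0.07 as deposited and 0.27 on the common total.

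Of the remaining families, the group of miR-15, miR-16, miR-103 and miR-107 had 4 tested members, all below 0, with a median of -0.31 as deposited and 0.20 on the common total. miR-29 had 4, all above 0, with a median of 0.26. miR-23, miR-24 and miR-27 had 3, with a median of -0.05 as deposited and 0.24 with median-ratio scaling. Its leading member, miR-23a, was at 56214 ± 11750 and 47806 ± 10545 (limma -0.23, 95% interval -0.76 to 0.29). Of the 73 miRNAs with a bovine high number 18 were tested, 7 above and 11 below 0 with a median of -0.23 as deposited and 0.24 on the common total, and miR-2478 was the only call among them.

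The libraries differed as wholes. The known scaling total was 2904 ± 1580 reads in healthy and 16184 ± 9211 in subclinical cows (two-sided exact permutation p = 0.00233, adjusted p = 0.0140 over 6 measures). Its share of both totals was 12.03% ± 9.81 and 37.5% ± 14.4 (exact permutation p = 0.00583, adjusted p = 0.0175), while numbered totals were 24037 ± 5962 and 23553 ± 3422 (exact permutation p = 0.877). Counts of different miRNAs were therefore set to equal reads. At 1371 known reads, 67.5 ± 13.2 known miRNAs were expected in healthy and 76.2 ± 7.07 in subclinical cows (exact permutation p = 0.145, adjusted p = 0.218). At 13033 numbered reads the counts were 318.6 ± 17.8 and 345.2 ± 21.4 (exact permutation p = 0.0280, adjusted p = 0.0559). Without healthy 7 both differences passed, at 12.3 known (adjusted p = 0.0402, exact permutation) and 31.5 numbered miRNAs (adjusted p = 0.0245, exact permutation). The top 10 known miRNAs took 76.7% ± 6.40 and 76.8% ± 5.33 of known reads (exact permutation p = 0.971).

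**Figure D5:**
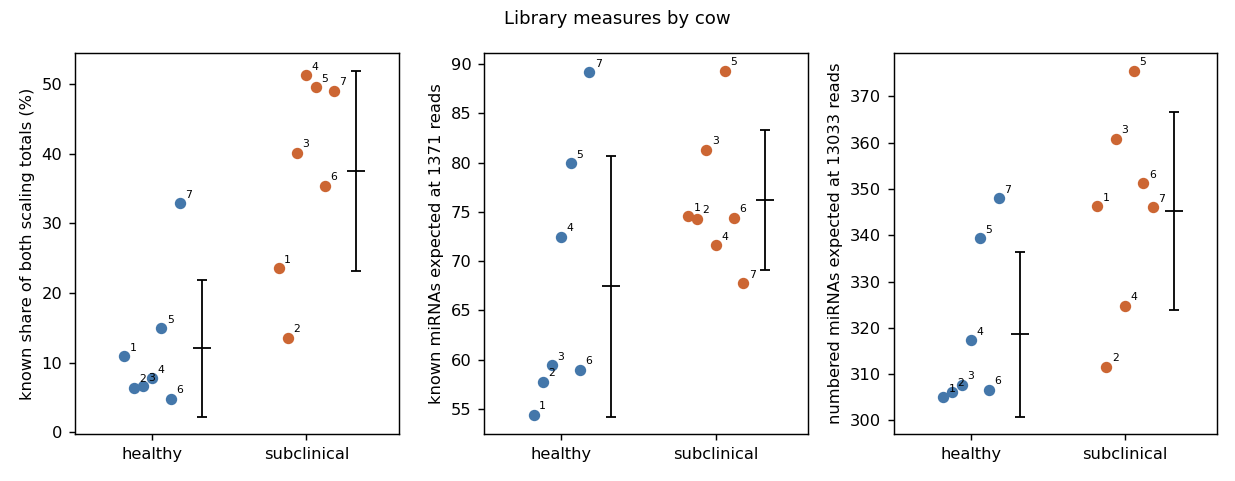
Known share of both scaling totals in percent, known miRNAs expected at 1371 reads and numbered miRNAs expected at 13033 reads; each point is a library with its replicate number, and black bars are the mean ± SD (n = 7 per group). Healthy 7 has the highest value of its group in all 3 panels, with a known share of 32.9%.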

How the data were processed

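TruSeq small RNA libraries were made from vesicle RNA prepared with a miRNeasy kit, per the labels' protocols. Bowtie, edgeR and the ARS-UCD1.2 build are named without a role, per the submitters' processing notes. The sources used here do not give the trimming and counting of reads. The authors deposited 1 table of a signal in reads per 1000000, scaled separately for known and numbered rows, so TPM does not describe it. Dividing by the worth of 1 read per library and block made 10115 of 10115 values above 0 whole to within 0.05 reads, and these reads entered the count tests. Columns were tied to cows by the labels' descriptions. The replicate 7 cows have columns numbered 9 (healthy) and 8 (subclinical), and no label says why. No 2 libraries of a group were alike within sampling noise (smallest chi-square per degree of freedom 3.75 over known and 5.87 over numbered reads).

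Tested were rows with at least 1 read in at least 7 of 14 cows. A row read in all 7 cows of 1 group met this filter whatever the other group held. In subclinical cows this was so for miR-122 and the 4 numbered calls. Limma (intensity trend, two-sided) was fitted per block on log2(signal + 1000) for known and log2(signal + 100) for numbered rows, round numbers above the worth of 1 read in the shallowest library, with Benjamini-Hochberg adjustment over both blocks. Log2 differences of low miRNAs are understated by these pseudocounts. Library measures were compared by an exact permutation test over 3432 assignments, whose smallest p is 0.000583. Intervals and limits for reads cover counting error only, since PCR copies were not told apart. Alternatives were edgeR and DESeq2 on recovered reads, other scalings, filters and pseudocounts, a replicate block, a fit of all 21 cows and leaving out libraries. The tests were tried on simulated data. Named are the 10 highest and 10 lowest known calls by p (filled to 5), the calls of the count tests, the 10 most abundant known miRNAs, members of 19 miRNA lists, known miRNAs read in at least 5 cows of 1 group only, and numbered calls with the 3 most abundant. Members, lists, tests and pseudocounts were chosen with earlier results of these data known. miRNAs of a family with near-identical sequences are reported as the authors counted them. Fits were run with DESeq2 1.42.0, edgeR 4.0.16 and limma 3.58.1 in R 4.3.3. Tables and plots were made with matplotlib 3.10.9, pandas 2.3.3 and numpy 2.4.6 in Python 3.11.15.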

Additional observations from a re-analysis of the deposited data

Results flagged for a closer look

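Among 136 groups of 7 values, 1 per group of cows for 62 tested miRNAs and 6 library measures, 24 had a cow far from the others by Dixon's test of the gap over the range. For normally distributed values chance gives such a value in about 1 of 20 groups; many groups here hold zeros and single reads, for which the rate was not tested. Healthy 7 gave 7 of them. It was the highest healthy cow by a wide gap for miR-192 (5225), miR-221 (2162), miR-2431-3p (180.2, from 1 read), 3_6921 and 7_15338 (2383 each). It also had the highest known share of both totals (32.9%) and the lowest numbered scaling total (11330) of its group. Without healthy 7 limma called 20 miRNAs (17 higher, 3 lower), among them all 7 called with it. In 18 of these 20 it was the extreme healthy cow, and in 16 it lay within the subclinical range. The 20 were picked by leaving healthy 7 out, which favours miRNAs where it lies towards the subclinical cows. These counts therefore cannot show whether healthy 7 resembles subclinical cows, and the same counts over all tested miRNAs are not given here.

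Healthy 5 was far above the other healthy cows for miR-29a (1522) and miR-222 (652, from 3 reads), and held all healthy reads of 11_22742 (229). The shallow library of healthy 6 stood above its group for miR-181a (4504, from 6 reads) and miR-19b (9760, from 13 reads), healthy 4 for miR-885 (481, from 1 read, as in healthy 7) and miR-197 (1444, from 3 reads), and healthy 2 for miR-28 (974, from 2 reads).

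Subclinical 1 was far above its group for 11_22742 (6472) and 1_1270 (6561) and alone in it had no read of miR-17-5p (0). Subclinical 2 was far above its group for miR-11980 (1284, from 4 reads), miR-142-3p (16693), miR-28 (1605, from 5 reads) and miR-328 (5136), and subclinical 3 for miR-885 (760.5) and miR-145 (1141).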

How the results depend on the processing

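Against 7 calls by limma, other settings gave 12 with DESeq2, 24 with edgeR on 1 scale for both blocks (24 higher), 19 with limma on that scale (17 higher, 2 lower) and 2 with a stricter filter. Chosen after seeing the data, leaving out healthy 3 and healthy 6 gave 0 by limma and 2 by edgeR, and leaving out both replicate 7 cows gave 20 by each. Without 1 library at a time limma called 5 to 20, edgeR 0 (without subclinical 1; 43 at an unadjusted p under 0.05, where limma called 5) to 21. Of 20 named miRNAs whose sign under edgeR on the common scale differed from limma as deposited, 4 were called higher: let-7b 1.84, miR-126-3p 2.66, miR-142-3p 2.05 and miR-23b-3p 2.15. On the separate scales edgeR already had these 4 above 0, at 0.06, 0.52, 0.42 and 0.37. The edgeR median over all known miRNAs tested was itself 0.41 on the separate scales and 1.935 on the common scale. Whether these 4 differ from that shift of the whole block was not tested. For named miRNAs the sign differed from the first value in 102 of 990 values under other settings, with those 4 the only ones called. Replicate numbers name different cows, and same-number deviations correlated above 0.1 in 2 of 7 pairs. With the numbers as a replicate block limma called 8, miR-1246 being the addition. Library measures that passed numbered 2 to 4 of 6 without 1 library, with differences of 6.53 to 12.3 known and 21.5 to 32.2 numbered miRNAs at equal reads. Depth limits the known rows of healthy libraries most. The cause of these changes was not tested.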

Other observations

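Some known miRNAs were read in 1 group only. Of these, 108 were read only in subclinical cows, 67 of them in 1 cow and 9 in at least 4, and 10 only in healthy cows, each in 1 cow. The subclinical libraries held 116045 known reads and the healthy ones 21103. miR-15b (22 reads), miR-27b (16 reads), miR-6123 (13 reads) and miR-378 (12 reads) were in 5 subclinical cows and no healthy cow. Their shares of subclinical known reads were 0.0190, 0.0138, 0.0112 and 0.0103%. With the reads of all healthy cows pooled, a count of 0 in 21103 reads allows a share of up to 0.0142% by counting error alone. For 3 of the 4 the subclinical share lies below that limit. The limit leaves out the spread between cows, and none of the 4 was tested over cows. No difference between the groups is therefore drawn for any of them, miR-15b included. Of the numbered miRNAs, 12 were read only in healthy and 20 only in subclinical cows.

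The row MT_46829, named for the mitochondrial genome, averaged 9767 ± 9891 in healthy cows and 18619 ± 11903 in subclinical cows (SD, n = 7 each; limma log2 difference 1.04, adjusted p = 0.561). DESeq2 called 5 miRNAs that limma did not, miR-1246, miR-184 and the numbered 5_10235, 11_23000 and 13_25824. The row 5_10235 was at 87.5 ± 99.8 and 4696 ± 8101 (limma 2.25, adjusted p = 0.409). MT_46829 and these 3 numbered rows were chosen after their values were seen.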
